A study of Mus musculus with 15 samples.

Results

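The promoter mark H3K4me3 (histone H3 trimethylated at lysine 4), found at active and poised promoters, was examined at 10 genes of the integrated stress response in mBA cells. The genes were Eif2ak4, Atf4, Atf5, Ddit3, Trib3, Chac1, Sesn2, Asns, Fgf21 and Gdf15, chosen by name out of 21770 protein-coding genes of the GENCODE M39 annotation. For each gene, every H3K4me3 peak that reached within 2000 bp of any of its annotated transcript starts was taken as a promoter peak, whether or not the gene turned out to have one. The mBA cells are brown adipocytes grown in culture from mouse brown fat, which the labels call primary and the study's methods describe as preadipocytes immortalized with SV40 large T antigen and then differentiated. There were 4 samples of untreated wild-type cells (WT), 4 of wild-type cells given 2-hydroxyglutarate in a cell-permeable octyl d-2HG form dissolved in DMSO (WT + 2HG) and 4 of cells lacking the mitochondrial matrix protease CLPP (CLPP-KO), with 1 input sample for each condition. The CLPP-KO cells were also supplemented with uridine, so the knockout and uridine cannot be told apart, and the sources used here do not say whether the untreated cells received DMSO.

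The integrated stress response begins when a kinase such as GCN2, encoded by Eif2ak4, phosphorylates the translation factor eIF2 and slows most protein synthesis, while the messenger RNA of ATF4 is translated more. ATF4, with C/EBP partners, then binds promoters of genes for amino acid supply, redox balance and further transcription factors, among them CHOP, the product of Ddit3. In tissues with mitochondrial dysfunction the pathway is known for the secreted hormones FGF21 and GDF15. Because ATF4 itself is regulated mainly at translation, and H3K4me3 reports the state of a promoter and not the amount of protein, these peaks do not measure the activity of the pathway.

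The 4 replicates of each condition had been combined for peak calling against 1 input, and the resulting lists held 12342 peaks for WT, 14059 for WT + 2HG and 15118 for CLPP-KO. Each condition is therefore 1 list, there is no spread between replicates to set a difference against, and no test between conditions was made. Both comparisons share the WT list. The lists hold no read counts, so the depth behind each peak is unknown. Peak strength is the area under the curve of the caller's significance track, which is larger for wider peaks, and it is given as the percentile of the gene's strongest promoter peak among all peaks of the same list. Such ranks do not show a difference in area between whole lists. The median peak area was 2970 in WT, 5027 under 2HG and 5744 in CLPP-KO, so a lower rank need not be a smaller area.

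The promoter sequences that the results turn on are shown first. ATF4 and its C/EBP partners bind a composite site with the core TGATGNAA. This word was present on either strand, within 250 bases before to 50 bases after the RefSeq start, in 4 of the 10 genes, Asns, Chac1, Fgf21 and Trib3, against 4.06% of the 27025 genes in the RefSeq promoter table. The 10 genes were chosen by name for this pathway, so the count is a description and not a test of enrichment. Asns, Chac1 and Fgf21 are printed below as the 250 bases before the start, 5′ to 3′ on the gene's strand in GRCm39, because they place the same word in promoters with and without the mark. The capitals mark the word or its reverse complement, with Asns at chr6:7693210-7693459, minus strand, Chac1 at chr2:119181473-119181722, plus strand and Fgf21 at chr7:45264915-45265164, minus strand.
Asns: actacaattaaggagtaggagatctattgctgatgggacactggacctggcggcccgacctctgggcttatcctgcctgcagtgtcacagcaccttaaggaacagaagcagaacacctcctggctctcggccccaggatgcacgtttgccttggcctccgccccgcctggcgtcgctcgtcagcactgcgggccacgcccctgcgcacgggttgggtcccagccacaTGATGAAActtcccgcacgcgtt
Chac1: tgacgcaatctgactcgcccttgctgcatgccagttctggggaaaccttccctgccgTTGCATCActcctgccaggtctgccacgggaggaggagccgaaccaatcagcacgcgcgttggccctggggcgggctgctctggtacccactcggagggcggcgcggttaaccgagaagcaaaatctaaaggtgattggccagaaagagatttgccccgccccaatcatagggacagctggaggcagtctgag
Fgf21: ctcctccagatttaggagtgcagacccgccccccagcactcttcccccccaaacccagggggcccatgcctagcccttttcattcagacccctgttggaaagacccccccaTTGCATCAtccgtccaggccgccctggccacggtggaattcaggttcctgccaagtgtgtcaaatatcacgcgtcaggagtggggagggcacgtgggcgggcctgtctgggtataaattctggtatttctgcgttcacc
The match began at base -23 from the start in Asns, at -193 in Chac1 and at -139 in Fgf21. In Trib3 it began 14 bases after the start, as TTACATCA. In Asns, Chac1 and Trib3 the word lay inside an H3K4me3 peak in all 3 lists, and in Fgf21 it lay in no peak of any list. A match of letters is a description and does not show that ATF4 was bound.

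Promoters rich in CpG dinucleotides usually carry H3K4me3. The same stretch before the start is printed for Atf4 (chr15:80139135-80139384, plus strand) and Gdf15 (chr8:71085107-71085356, minus strand), with each CG in capitals, because the first had no peak in any list and the second had one in CLPP-KO only.
Atf4: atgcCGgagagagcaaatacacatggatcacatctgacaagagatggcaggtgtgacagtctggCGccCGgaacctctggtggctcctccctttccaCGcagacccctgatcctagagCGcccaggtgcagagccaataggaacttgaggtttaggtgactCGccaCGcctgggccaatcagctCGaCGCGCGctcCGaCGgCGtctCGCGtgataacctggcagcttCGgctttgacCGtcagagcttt
Gdf15: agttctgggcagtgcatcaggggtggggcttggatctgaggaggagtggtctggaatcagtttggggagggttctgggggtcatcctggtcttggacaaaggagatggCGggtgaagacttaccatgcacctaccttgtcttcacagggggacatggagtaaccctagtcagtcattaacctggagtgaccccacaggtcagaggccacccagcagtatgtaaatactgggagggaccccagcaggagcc
The Atf4 stretch held 18 CpGs and the Gdf15 stretch 1, beside 9 in that of Fgf21, 15 in that of Chac1 and 16 in that of Asns. The build of the peak lists is GRCm39 by the labels and the study's methods. All 10 RefSeq starts were placed on it by an exact match of the promoter sequence.

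Most of the 10 genes carried H3K4me3 at their promoters in every condition. There were 7 with a promoter peak in WT, 7 under 2HG and 8 in CLPP-KO, against 51.3%, 56.4% and 58.2% of all protein-coding genes. The kinase gene Eif2ak4, the transcription factor genes Atf5 and Ddit3, the regulators Trib3, Chac1 and Sesn2 and the enzyme gene Asns were marked in all 3 lists, which was so for 50.6% of protein-coding genes. Atf4, the central transcription factor, and Fgf21 had no promoter peak in any list, as did 40.6% of protein-coding genes. Gdf15 was marked in CLPP-KO alone. Of the 3 members without a WT promoter peak, 0 had one in WT + 2HG and 1 had one in CLPP-KO, where the shares of such protein-coding genes were 11.6% and 14.9%. An annotated start lay inside a peak in 7 of the 10 genes in each list, beside 45.3% of protein-coding genes in WT, 52.1% under 2HG and 53.3% in CLPP-KO.

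**Figure D1:**
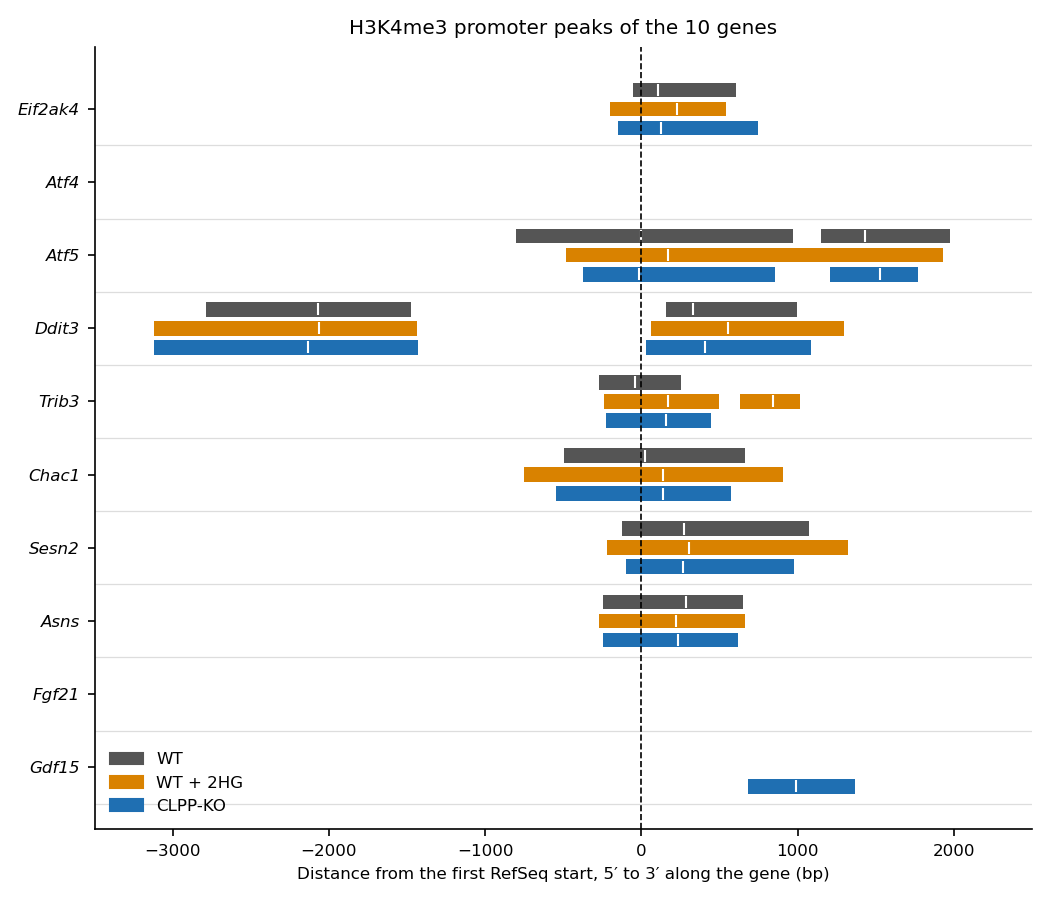
Promoter peaks of the 10 genes, 1 row per gene and 1 bar per peak for WT (grey), WT + 2HG (orange) and CLPP-KO (blue). The horizontal axis is the distance from the first RefSeq start in bp, 5′ to 3′ along the gene, and white ticks are summits. Atf4 and Fgf21 have no bar, Gdf15 has 1 bar in CLPP-KO that begins 682 bp after the start, and the larger Ddit3 bars lie about 2 kb before it, with summits at -2068, -2064 and -2132 bp.

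The sensor of the pathway comes first. Eif2ak4 (chr2:118218950-118305868, plus strand) encodes GCN2, the kinase that is activated by uncharged transfer RNA. Its single promoter peak was 664 bp wide in WT, 743 bp under 2HG and 895 bp in CLPP-KO. The area percentiles were 44.6, 57.1 and 53.4 in the same order. WT + 2HG and CLPP-KO were thus above WT in width and in percentile. When the gene was ranked only among the 11021 protein-coding genes marked in all 3 lists, its position was 32.9 in WT, 39.9 under 2HG and 31.3 in CLPP-KO, so the higher value in WT + 2HG stayed and that in CLPP-KO did not. The summits lay 103, 229 and 123 bp downstream of the RefSeq start, in an exon.

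Among the transcription factors, Atf4 (chr15:80139372-80141745, plus strand) had no promoter peak although its promoter was CpG-rich, with an observed-to-expected CpG ratio of 0.84 and a GC content of 60.3%. Promoters were called CpG-rich at a ratio of at least 0.6 and a GC content of at least 55% in the 300 bases around the canonical start. Of the 7401 protein-coding genes with such a promoter, 5.34% had no promoter peak in any list, and Atf4 was the 1 among the 6 CpG-rich members. The share without a peak was 58.8% for promoters that were not CpG-rich, which took in 4 members, with Fgf21 the 1 among these without a peak. Asns was among these 4, with a ratio of 0.19 and a GC content of 46%. Its canonical start was not the RefSeq start whose stretch, with 16 CpGs, is printed above.

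The nearest peak to the Atf4 start was 80.7 kb away in WT (80697 bp), 80.4 kb under 2HG (80375 bp) and 32.4 kb in CLPP-KO (32378 bp). Around the gene there was a stretch without any peak that measured 537 kb in WT, 497 kb under 2HG and 113 kb in CLPP-KO. In WT this stretch contained 8 protein-coding genes whole, of which Mief1, Atf4, Rps19bp1 and Cacna1i had CpG-rich promoters. In CLPP-KO it contained 4, Mief1, Gm55359, Atf4 and Rps19bp1, and 3 of these had CpG-rich promoters. Neighbouring CpG-rich promoters were thus without a called peak as well. Whether this stretch was open to peak calling was not tested.

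Atf5 (chr7:44461680-44466082, minus strand) encodes an ATF4 relative that takes part in the mitochondrial unfolded protein response. It had the strongest peak of the 10 genes in WT + 2HG and the second strongest in WT. The area percentile of its strongest promoter peak was 85.1 in WT, 95.6 under 2HG and 69.3 in CLPP-KO. In WT the gene had a peak of 1771 bp over the start and a second of 826 bp beginning 1148 bp after it. In WT + 2HG a single peak of 2409 bp, from 481 bp before to 1927 bp after the start, took in both positions. In CLPP-KO there were again 2 peaks, of 1230 and 562 bp. The marked width, the summed width of all promoter peaks, was thus 2597 bp in WT, 2409 bp under 2HG and 1792 bp in CLPP-KO. Starts of Il4i1 and Nup62 lay inside the main peak in all 3 lists, so the mark at this site cannot be assigned to Atf5 alone. By area per base the CLPP-KO value was not below WT, with percentiles of 56.5 in WT, 69.7 under 2HG and 60.4 in CLPP-KO.

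Ddit3 (chr10:127124268-127132163, plus strand) encodes CHOP, a transcription factor linked to cell death under prolonged stress. It had 2 promoter peaks in each list, and the stronger was not at its RefSeq start. The stronger peak lay upstream, from -2786 to -1477 bp of the RefSeq start in WT, and held 1 further annotated Ddit3 start as well as a start of Mbd6. Its area percentile was 77.2 in WT, 73.3 under 2HG and 53.1 in CLPP-KO, while its width was 1310, 1686 and 1689 bp. The peak was therefore wider but of lower rank in CLPP-KO than in WT. Its rank by area per base was 63.7 in WT, 49.0 under 2HG and 31.8 in CLPP-KO. The weaker peak began just after the RefSeq start, at 160 bp in WT, 64 bp under 2HG and 31 bp in CLPP-KO. Its area percentile was 18.99 in WT, 18.86 under 2HG and 22.1 in CLPP-KO. The order of these low values depended on the length of the lists: with each limited to its 12342 largest areas, a setting chosen after seeing the data, the peak was at 18.99 in WT, 7.6 under 2HG and 4.6 in CLPP-KO. No peak of any list covered the RefSeq start itself. In WT, 2 of the 7 marked members, Atf5 and Ddit3, had a strongest peak that held a start of another protein-coding gene, beside 19.1% of marked protein-coding genes.

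Trib3, Chac1 and Sesn2 are targets of the pathway that feed back on it or on growth. Trib3 (chr2:152179337-152191958, minus strand) encodes a pseudokinase that restrains ATF4 and CHOP. It had the weakest peak of the 7 genes marked throughout, at the 28.3 percentile in WT, 31.7 under 2HG and 34.5 in CLPP-KO. Its peak at the start was 530 bp wide in WT, 736 bp under 2HG and 674 bp in CLPP-KO. In WT + 2HG a second peak of 386 bp began 632 bp after the start, which brought the marked width to 1122 bp. The summit lay 38 bp before the start in WT and 170 and 156 bp after it in WT + 2HG and CLPP-KO. The ATF4-type word at base 14 lay inside the peak at the start in all 3 lists. Ranked among the genes marked in all lists, Trib3 was at 17.05 in WT, 11.1 under 2HG and 10.4 in CLPP-KO, an order opposite to that of the percentiles above.

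Chac1 (chr2:119180757-119184866, plus strand) encodes an enzyme that degrades glutathione and is a target of ATF4. Its single peak was 1157 bp wide in WT, 1659 bp under 2HG and 1119 bp in CLPP-KO. The area percentile was 42.0 in WT, 70.3 under 2HG and 57.5 in CLPP-KO. This was the largest difference in percentile from WT among the 7 genes under 2HG, 28.3 points, with a marked width 1.43 times that in WT. In CLPP-KO the percentile was higher by 15.5 points at nearly the same width. The higher values also stood among the genes marked in all lists, where Chac1 was at 30.2 in WT, 57.6 under 2HG and 36.7 in CLPP-KO, and by area per base, where it was at 28.6, 46.6 and 50.0.

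Sesn2 (chr4:132219335-132237815, minus strand) encodes a leucine sensor that inhibits the growth kinase complex mTORC1. Its percentile differed least between the lists, at 86.7 in WT, 85.1 under 2HG and 87.5 in CLPP-KO. The peak was 1193 bp wide in WT, 1540 bp under 2HG and 1080 bp in CLPP-KO. By area per base its percentile was 85.3 in WT, 72.4 under 2HG and 96.4 in CLPP-KO. A wider peak of lower rank per base and a narrower one of higher rank thus had nearly the same area rank. The area per base itself was 6.0 in WT, 7.8 under 2HG and 13.2 in CLPP-KO.

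Asns (chr6:7671667-7728461, minus strand) encodes asparagine synthetase, the enzyme that makes asparagine from aspartate. Its single peak kept nearly the same width, at 893 bp in WT, 936 bp under 2HG and 864 bp in CLPP-KO. The area percentile was 50.7 in WT, 64.0 under 2HG and 63.7 in CLPP-KO. By area per base it was 49.3, 72.2 and 77.2, and among the genes marked in all lists 39.6, 48.8 and 45.2. WT + 2HG and CLPP-KO were above WT on each of these 3 scales. The word TGATGAAA printed above lay inside the peak, whose 5′ edge was at -246 bp from the RefSeq start in WT, -274 bp under 2HG and -249 bp in CLPP-KO. The RefSeq start of Asns and 13 annotated starts in all lay inside the peak in each list.

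The secreted factors had no promoter peak in WT or WT + 2HG. Fgf21 (chr7:45263301-45266963, minus strand), a hormone of nutrient stress, had no promoter peak in CLPP-KO either. Its nearest peak was 13.0 kb away in WT (13022 bp) and 8.2 kb away in WT + 2HG and CLPP-KO (8198 and 8196 bp). These peaks were weak, at the 6.3, 6.5 and 10.6 percentile of their lists. The stretch without a peak around it was 57.6 kb in WT, 52.7 kb under 2HG and 52.8 kb in CLPP-KO and held whole only Fgf21 and Fut1 among protein-coding genes.

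Gdf15 (chr8:71082038-71091537, minus strand), a stress hormone that acts on the hindbrain, was the 1 member whose state differed between lists. In CLPP-KO it had a peak of 685 bp at chr8:71083740-71084424, at the 21.9 percentile by area and 18.98 by area per base. The peak began 682 bp after the first RefSeq start, its summit lay in an exon 992 bp after it, and no annotated start was inside. In WT the nearest peak was 20.8 kb away (20823 bp). CLPP-KO had a second peak further into the gene, of 876 bp, which began 2016 bp after the RefSeq start, at the 34.5 percentile. WT + 2HG had a peak of 690 bp at that position, which began 2060 bp after the start, at the 24.9 percentile. Both of these lay just outside the promoter window, so the peak nearer the start was the one found in CLPP-KO alone. With a window of 3000 bp Gdf15 was also marked in WT + 2HG. With the most upstream start of each gene alone, the gain in CLPP-KO was lost. With peaks within 1000 bp of each other merged, the marked width of Gdf15 in CLPP-KO was 2210 bp in place of 685 bp. The peak nearer the start was weak, and its rank depended on the length of the list, with the 4.3 percentile when each list was limited to its 12342 largest areas. The promoter was poor in CpG, with an observed-to-expected ratio of 0.042.

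**Figure D2:**
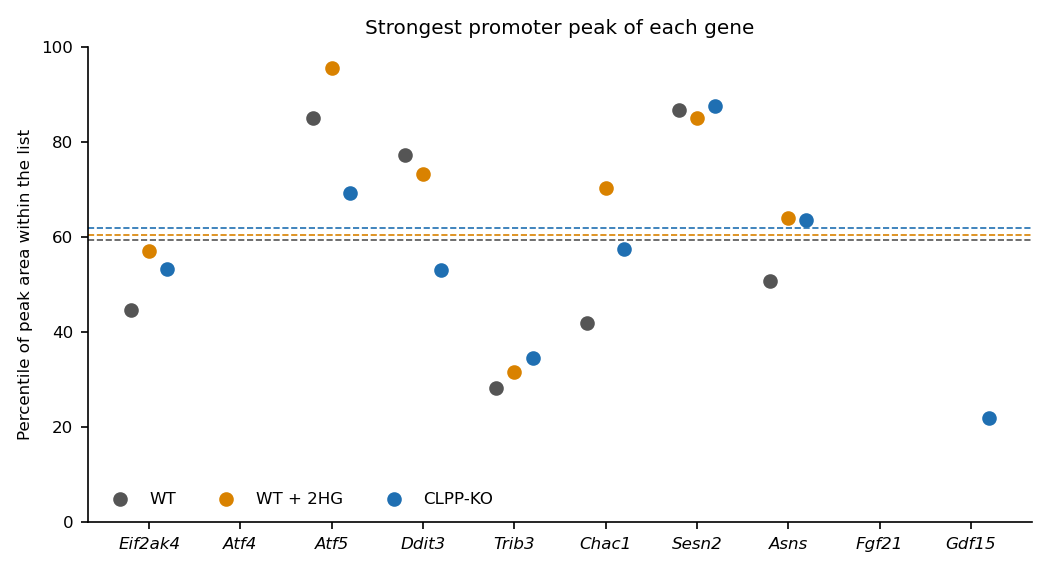
Area percentile of the strongest promoter peak of each gene within its list, for WT (grey), WT + 2HG (orange) and CLPP-KO (blue), with 1 pooled list per condition and no error bars. Dashed lines are the medians of all protein-coding genes with a promoter peak in the list (59.3, 60.6 and 62.0); Sesn2 lies above and Trib3 below them in all 3 lists, and Chac1 crosses them between WT (42.0) and WT + 2HG (70.3).

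The order of the 10 genes was partly kept between conditions. In WT it ran from Sesn2 and Atf5 over Ddit3, Asns, Eif2ak4 and Chac1 to Trib3. In WT + 2HG it ran from Atf5 over Sesn2, Ddit3, Chac1, Asns and Eif2ak4 to Trib3. In CLPP-KO it ran from Sesn2 over Atf5, Asns, Chac1, Eif2ak4 and Ddit3 to Trib3 and Gdf15. With no replicate lists it cannot be said which neighbours in these orders differ beyond their spread. The median area percentile of the marked members was 50.7 in WT, 70.3 under 2HG and 55.4 in CLPP-KO. For all marked protein-coding genes it was 59.3, 60.6 and 62.0. The members' CLPP-KO median was below WT with lists of equal size (45.4 against 50.7) and by peak width (59.8 against 76.6). It was also below WT with the most upstream start (57.5 against 77.2, with 73.3 under 2HG) and by area per base (53.1 against 56.2). Without the peaks that hold a start of another gene, which removes the main peaks of Atf5 and Ddit3, the medians were 42.0, 60.5 and 43.9, over 7, 6 and 8 genes. Atf5 kept a weaker peak in WT (25.4) and CLPP-KO (28.0) and none in WT + 2HG.

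Against WT, the area percentile was higher by 10 points or more in WT + 2HG in 4 of the 7 genes marked throughout, Chac1, Asns, Eif2ak4 and Atf5, beside 32.0% of protein-coding genes. It was lower by as much in 0 of 7, beside 9.74%. In CLPP-KO it was higher by 10 points or more in 2 of 7, Chac1 and Asns, beside 36.2% of protein-coding genes. It was lower by as much in 2 of 7, Ddit3 and Atf5, beside 6.56%, and both of these are the peaks that take in starts of other genes. These are differences in rank. The areas themselves were larger in CLPP-KO than in WT, at 6253 against 5651 in Ddit3 and 9257 against 6845 in Atf5. The median difference over the 7 genes was 10.4 points in WT + 2HG and 6.18 in CLPP-KO. Over all genes marked in every list it was 3.69 and 5.30. With ranks taken only among those genes, the middle difference of the 7 was 6.92 in WT + 2HG (Eif2ak4). In CLPP-KO it was -2.34 (Sesn2), so the direction there turned. List percentiles also depend on how many weak peaks a list holds. At any size of difference, 5 of the 7 members had a higher list percentile than WT in WT + 2HG, beside 64.3% of the 11021 genes, and 5 in CLPP-KO, beside 69.9%. When the genes were ranked among those marked in all lists, 4 of the 7 were higher in WT + 2HG, beside 48.5% of all such genes. In CLPP-KO 2 were higher, Chac1 and Asns, beside 47.7%. On that ranking these 2 were higher by only 6.50 and 5.64 points in CLPP-KO, below the 10 points used above. In WT + 2HG the differences were 27.4 in Chac1, 12.6 in Atf5, 9.23 in Asns and 6.92 in Eif2ak4. Those of Ddit3 and Atf5 in CLPP-KO were -40.4 and -27.6.

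**Figure D3:**
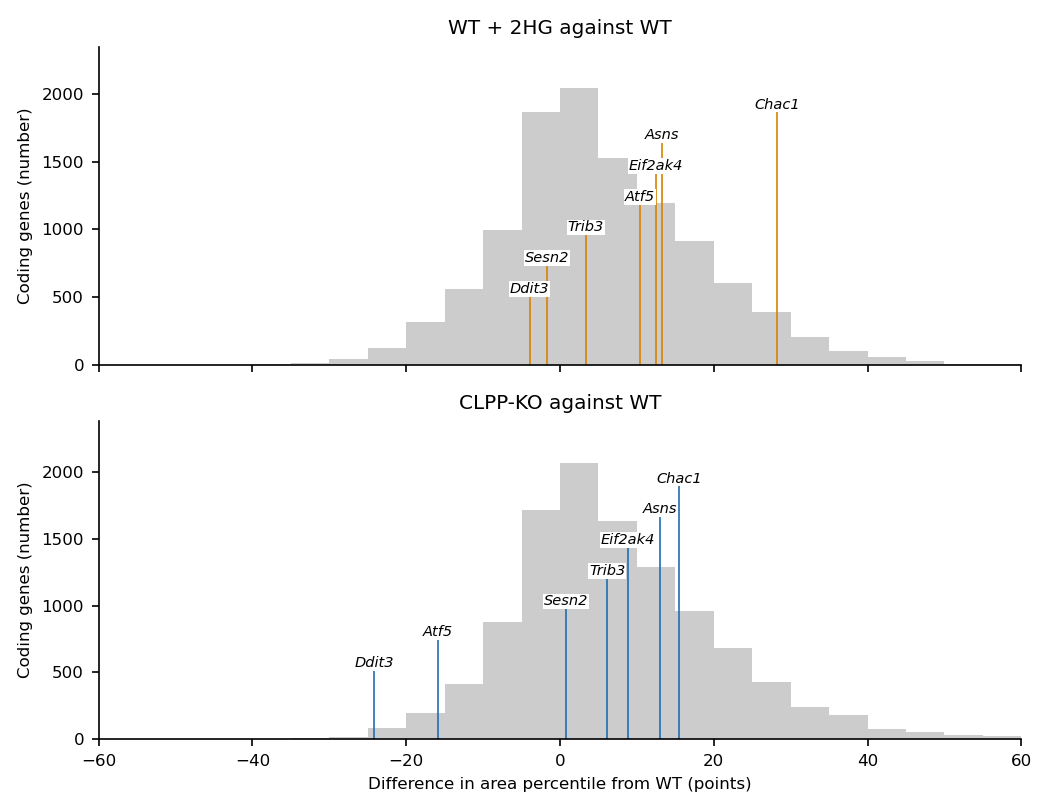
Difference in area percentile from WT, in points, for the 11021 protein-coding genes with a promoter peak in all lists (grey bars, number of genes per 5-point bin), in WT + 2HG (upper panel) and CLPP-KO (lower panel). Coloured lines mark the 7 members. In WT + 2HG Chac1 lies at 28.3 points, and in CLPP-KO Ddit3 lies at -24.2 and Atf5 at -15.9.

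The marked width was larger than in WT in 6 of 7 genes in WT + 2HG, the exception being Atf5, beside 73.3% of protein-coding genes marked in both lists. In CLPP-KO it was larger in 3 of 7, Ddit3, Trib3 and Eif2ak4, beside 72.7%. The median ratio to WT over the 7 genes was 1.29 in WT + 2HG and 0.97 in CLPP-KO, against 1.11 and 1.10 over all genes marked in every list. In WT + 2HG the ratio ran from 0.93 in Atf5 to 2.12 in Trib3, and in CLPP-KO from 0.69 in Atf5 to 1.35 in Eif2ak4. Asns, Chac1 and Sesn2 were narrower in CLPP-KO than in WT by 29, 38 and 113 bp. With 7 genes and 1 list per condition, whether these differences exceed the spread between samples was not tested.

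**Figure D4:**
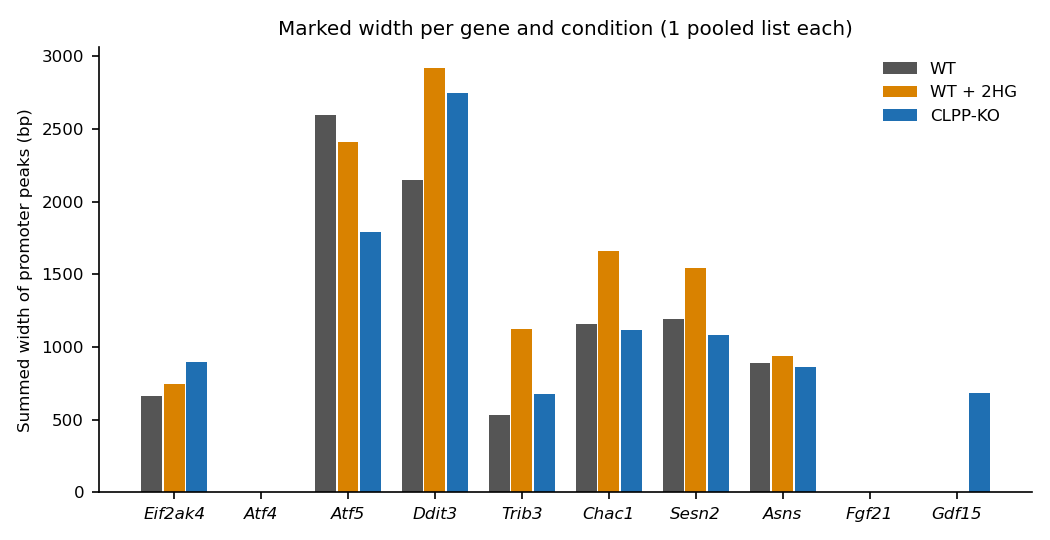
Summed width of all promoter peaks, in bp, of the 10 genes in WT (grey), WT + 2HG (orange) and CLPP-KO (blue), with 1 pooled list per condition and no error bars. The orange bar is the tallest of the 3 in Ddit3 (2917 bp), Trib3 (1122 bp), Chac1 (1659 bp), Sesn2 (1540 bp) and Asns (936 bp), and Gdf15 has a bar in CLPP-KO alone (685 bp).

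The other genes of the pathway were marked nearly throughout. Of 55 genes in 9 lists, 49 had a promoter peak in all 3 conditions and 1 in none, beside 50.6% and 40.6% of all protein-coding genes. The other 5 were marked in some conditions. There were 50 marked in WT, 52 under 2HG and 53 in CLPP-KO, beside 51.3%, 56.4% and 58.2%. The 50.6% is also the share to set beside the counts marked throughout that follow for single lists. Their median area percentile was 71.0 in WT, 65.9 under 2HG and 66.7 in CLPP-KO. Among the other eIF2 kinases, PERK (Eif2ak3) was at the 77.4 percentile in WT, 89.3 under 2HG and 88.8 in CLPP-KO. PKR (Eif2ak2), the kinase activated by double-stranded RNA, had no promoter peak in WT and one at 25.7 in WT + 2HG and 24.8 in CLPP-KO. Oma1 and Dele1, the mitochondrial protease and its messenger that relay mitochondrial stress to the pathway, were marked in every list, at 46.3 and 40.3 in CLPP-KO. All 8 subunit genes of eIF2 and eIF2B were marked throughout, from Eif2s3x at 19.8 to Eif2b4 at 83.3 in CLPP-KO. The 5 phosphatase subunit genes were too, from Ppp1r15a, the stress-induced subunit GADD34, at 51.1 to Ppp1r15b at 89.3.

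Of 5 further stress transcription factors, Nfe2l2, the regulator of the oxidative stress response, was highest in CLPP-KO at 97.3. Nupr1, a small stress-induced chromatin protein, was lowest at 7.9, had a peak at 15.1 in WT + 2HG and had none in WT. Of 7 amino acid transporters, Slc7a11, which imports cystine for glutathione synthesis, had no promoter peak in any list. The other 6 were marked throughout, with Slc38a2 highest at 95.6 and Slc3a2 lowest at 61.3 in CLPP-KO. Of the 9 enzymes of serine, proline and one-carbon metabolism, 6 were marked throughout and 3 in some lists. Phgdh, which starts serine synthesis, was highest of them in CLPP-KO at 71.5. Pycr1, the last enzyme of proline synthesis, had a weak peak in CLPP-KO alone at 2.1. Shmt2, the mitochondrial serine hydroxymethyltransferase, had one in WT + 2HG alone at 13.6. Cth, which makes cysteine from cystathionine, had one in WT at 0.75 and in CLPP-KO at 11.03 but none in WT + 2HG. The 5 genes that differed between lists thus had weak peaks, at percentiles from 0.75 to 25.7.

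All 10 transfer RNA synthetase genes were marked throughout, from Iars1 at 19.2 to Yars1 at 96.9 in CLPP-KO. All 6 other targets of ATF4 or CHOP were marked throughout, from Sqstm1 at 79.0 to Vldlr at 98.7. All 7 genes of the other arms of the unfolded protein response were marked throughout, from Atf6 at 17.4 to Edem1 at 92.1. Stc2, a secreted glycoprotein gene of this group of targets, was at 48.4 in WT, 56.0 under 2HG and 83.6 in CLPP-KO, and was picked out after its values were seen.

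**Figure D5:**
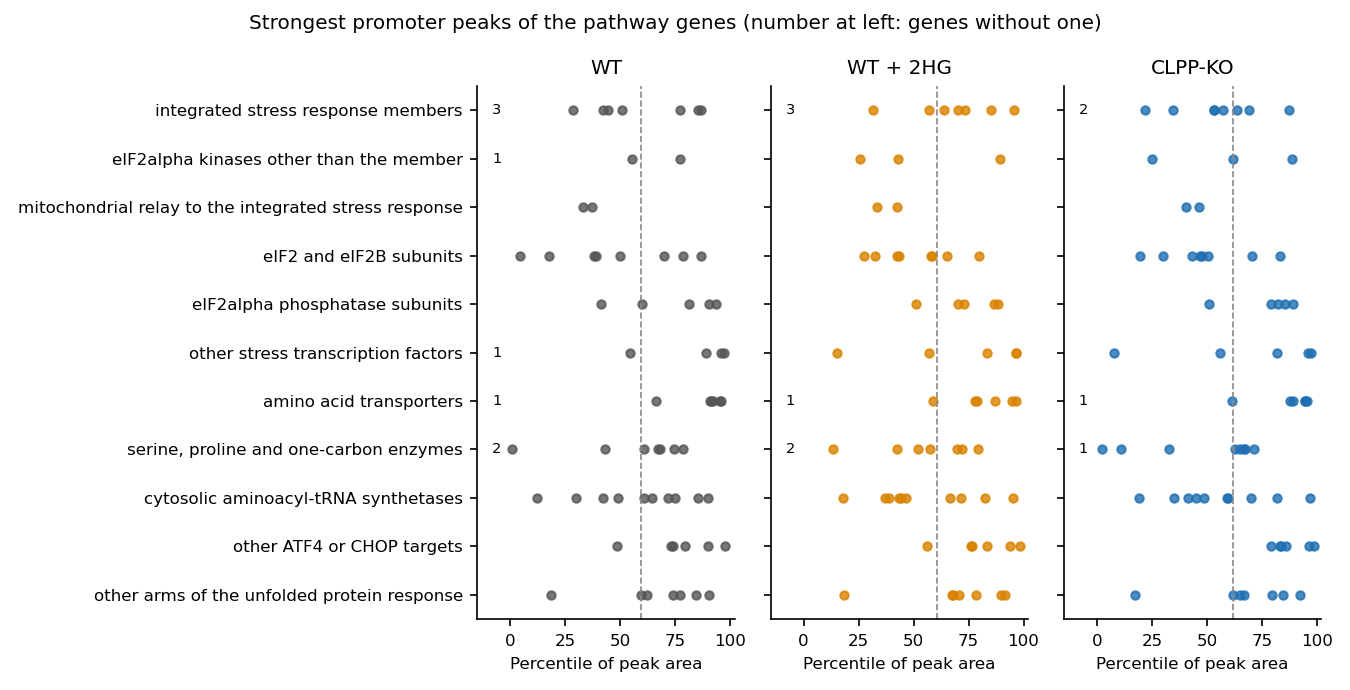
Area percentile of the strongest promoter peak of each gene, 1 point per gene, for the 10 members and the other pathway lists (rows) in WT, WT + 2HG and CLPP-KO (panels). Numbers at the left of a row count genes without a promoter peak, and the dashed lines are the medians of all marked protein-coding genes (59.3, 60.6 and 62.0). The lists of amino acid transporters and of other ATF4 or CHOP targets lie mostly to the right of the line, and the members spread on both sides of it.

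Clpp itself had a promoter peak in all 3 lists, at the 39.9 percentile in WT, 45.2 under 2HG and 43.4 in CLPP-KO. A promoter mark does not show whether a protein is made, so this value does not check the knockout. Markers of the cell type were only partly marked. Of 12 adipocyte markers, 3 had a promoter peak in WT, 6 under 2HG and 6 in CLPP-KO. The shares of all protein-coding genes were 51.3%, 56.4% and 58.2%. Prdm16, Pparg and Cebpa were marked in all lists, with Prdm16 at 93.5, 99.7 and 96.1. Pparg, the central adipogenic factor, was at 16.99 in WT, 70.4 under 2HG and 37.3 in CLPP-KO. Cidea and Plin1 were marked in WT + 2HG and CLPP-KO, Lipe in WT + 2HG and Ebf2 in CLPP-KO. Ucp1, Ppargc1a and Dio2, which define thermogenic fat cells, and Adipoq and Fabp4, which define mature fat cells, had no promoter peak in any list.

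Of 5 muscle markers, Ckm was marked in every list and Pax7 and Myod1 in CLPP-KO alone, at the 53.0 and 10.7 percentile. Myog and Acta1 were in no list. Of 5 leukocyte markers 0 were marked in any list, and of 5 endothelial markers Kdr alone was marked, in all 3. Of 5 neural markers, Olig2 was marked in WT + 2HG and CLPP-KO and Rbfox3 in CLPP-KO, with the highest percentile at 10.0. Gdf15 gained its peak in the CLPP-KO list. In that list 6 adipocyte, 3 muscle and 2 neural markers had a promoter peak. The counts were 3, 1 and 0 in WT and 6, 1 and 1 in WT + 2HG. Of all protein-coding genes, 51.3% had a promoter peak in WT, 56.4% under 2HG and 58.2% in CLPP-KO. The part of these markers in the Gdf15 result was not tested.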

How the data were processed

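H3K4me3 ChIP–seq was made from 12 mBA samples and 3 inputs. The authors trimmed reads with fastp 0.23.4, mapped them to GRCm39 with BWA 0.7.17, called peaks with Genrich 0.6.1 on 4 replicates together and used deepTools 3.5.4. The deposited columns are a score of at most 1000, the area under the significance curve as the signal, and the −log10 p-value at the summit. The deposited q-value field is -1 throughout and was taken as missing. The study's stated peak call set a q-value limit and left out chromosome X. The lists used here hold promoter peaks of Eif2s3x on chromosome X, so they do not match that call in full. Their smallest area was 200 in each list, and the threshold behind them is not known. The authors applied an exclusion list of genome ranges, which was not used here.

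Peak ends were checked against GRCm39, and 0 lay beyond a chromosome end. Windows of 2000 bp around every GENCODE M39 start were overlapped with peaks by at least 1 bp. Percentiles are shares of a list's peaks with an equal or smaller value. Of 2 coding records named Ddit3, the one of lower identifier was used. The code was tested on simulated data and against bedtools. Python 3.11.15, pandas 2.3.3 and pysam 0.24.0 were used.

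The members and gene lists were chosen with earlier results of these data known. All 10 members were described. From the other lists, genes whose state differed between conditions and the highest and lowest in CLPP-KO were named. Promoter sequences came from the RefSeq table (GRCm38.p6), placed on GRCm39. Alternatives changed the window, starts, thresholds, list sizes and ranking. Area per base and unshared peaks were added after seeing the data. No condition was tested against another.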

Additional observations from a re-analysis of the deposited data

How the results depend on the processing

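Of the 81 planned recalculations of the 8 counts and medians, 55 stayed within 1.5 times the count or within the 95% Wilson interval of the percentile. That interval covers rank error only and no spread between samples. Most counts stayed, and most recalculated medians moved. The WT list is the shortest, so lists of equal size could not change its values. With the most upstream start of each gene alone, members with a promoter peak numbered 5 in each list (from 7, 7 and 8), gains in CLPP-KO fell to 0, and the medians were 77.2 in WT, 73.3 under 2HG and 57.5 in CLPP-KO. With a window of 3000 bp, Gdf15 was also marked in WT + 2HG, giving 1 gain there and a median of 67.1. With lists of 12342 peaks each, the medians were 50.7 in WT, 66.2 under 2HG and 45.4 in CLPP-KO, and Gdf15 was at 4.3 in CLPP-KO. With a summit p of at most 1e-05 they were, in the order WT, WT + 2HG, CLPP-KO, 41.7, 66.3 and 47.7, and with an area of at least 1000 they were 36.1, 63.8 and 45.3. On chromosomes 1 to 19 they were 49.8 in WT and 54.1 in CLPP-KO. Ranked by summit −log10 p the medians were 45.1, 69.2 and 58.0, by peak width 76.6, 86.9 and 59.8, and by summed area of all promoter peaks 38.2, 59.5 and 44.7. By area per base, chosen after seeing the data, they were 56.2 in WT against 53.1 in CLPP-KO. Without shared peaks, also chosen after seeing the data, they were 42.0, 60.5 and 43.9, over 7, 6 and 8 genes. Merging peaks within 1000 bp brought the marked width of Gdf15 in CLPP-KO from 685 to 2210 bp. The median was higher in CLPP-KO than in WT as reported, and lower with the most upstream start, with lists of equal size, by peak width and by area per base. The cause of these differences was not tested. The WT + 2HG median was the highest of the 3 in every setting named here but the most upstream start.

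No paired analysis was possible because the lists pool the 4 replicates of each condition, and for the same reason replicates were not left out in turn. The lists carry no depth, so a missing peak at Atf4, Fgf21 or Gdf15 says that none was called, not that the mark was absent.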
